A study of Arabidopsis thaliana with 33 samples.

Results

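The regions described here are 759 sites of open chromatin in Arabidopsis thaliana seedlings that had a FAIRE-seq peak without stress, under heat and under cold, and none under salt or drought. They were chosen from the 72789 peaks of the control FAIRE-seq list on chromosomes 1 to 5, of which they make up 1.04% (95% Wilson interval 0.971 to 1.12). A control peak was taken when it shared no base with any peak of the salt or the drought FAIRE-seq list and at least 1 base with a peak of both the heat and the cold list. These sites are called members below. Absence from a list means that no peak was listed there. It does not measure how closed the site was.

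Seedlings of accession Columbia-0 were 10 days old and were held in 250 mM sodium chloride for 6 h (salt), air dried for 1 h (drought), kept at 38 °C for 6 h (heat) or at 4 °C for 24 h (cold), or left unstressed (control). Seedlings were the source of all libraries, so roots and shoots were not separated, and fewer cells with an open site and less opening per cell cannot be told apart. Each condition was assayed by FAIRE-seq and by DNase-seq with 3 libraries per assay, except cold with 2, and a single peak list, linked to all libraries of the group, was used for each. No replicate error can be had from single lists, no test was made, read depth is unknown, and the intervals given below cover counting error only.

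Promoters and other regulatory DNA are held partly free of nucleosomes so that transcription factors and RNA polymerase can bind. FAIRE recovers DNA that formaldehyde does not link to protein, which favours such stretches, and DNase I cuts DNA that is not wrapped or covered. In plants, salt and drying both withdraw water from cells and both act largely through the hormone abscisic acid, while heat works mainly through heat shock factors and cold through the CBF factors.

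The salt and drought FAIRE lists were longer than the control list, with 90465 and 92034 peaks, and the heat list held 85366 and the cold list 63060. Of all control peaks, 12.8% were absent from the salt list, 10.3% from the drought list, 8.05% from the heat list and 29% from the cold list. These shares are part of the rule that chose the members. Both salt and drought lacked 6264 control peaks. Of these, 2653 had a peak under heat and none under cold, 2640 had none under either, 759 had a peak under both, and 212 had one under cold and none under heat.

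The members were narrower than most control peaks and ranked above the middle of the control list in strength. Their median width was 161 bp (quartiles 134 and 205.5, range 100 to 572), against 192 bp for all control FAIRE peaks and 235 bp for the 48174 control peaks present in all 4 stress lists. Other sets of lost peaks were narrower still, with medians of 117 bp for peaks absent from all 4 stress lists and 134 bp for those present in heat alone, but 174 bp for those absent from salt alone. Their median fold enrichment over the local background was 2.38 (quartiles 2.07 and 2.77, range 1.25 to 4.76), against 2.28 for the peaks present in all 4 lists and 2.16 for the whole control list. Fold enrichment is the value of the authors' peak caller and ranks peaks within 1 list only. As a percentile of the control list, the members had a median of 66.7, where the peaks absent from all 4 stress lists had 39.4 and those present in all 4 had 60.1. These values come from the lists that chose the members and are a description.

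Members made up a larger part of the strong peaks than of the weak ones. In decile 1 of the control list by fold enrichment, the weakest, 45 of 7280 peaks were members (0.618%, 0.462 to 0.826). In decile 9, 128 of 7279 were (1.76%, 1.48 to 2.09), and in decile 10, the strongest, 109 of 7279 were (1.24 to 1.80%). The peaks present in all 4 stress lists rose as well, from 39.2% of decile 1 to 94.2% of decile 10. A rise with strength was thus not particular to the members, and both sets need a heat and a cold peak by choice. The peaks absent from all 4 stress lists ran the other way, with 5.26% of decile 1 and 0.179% of decile 10. By width, members made up 1.58% (1.39 to 1.79) of control peaks of at least 150 and under 200 bp and were least frequent among those of 300 bp or more (39 of 16883 peaks, 0.231%, 0.169 to 0.316).

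**Figure D1:**
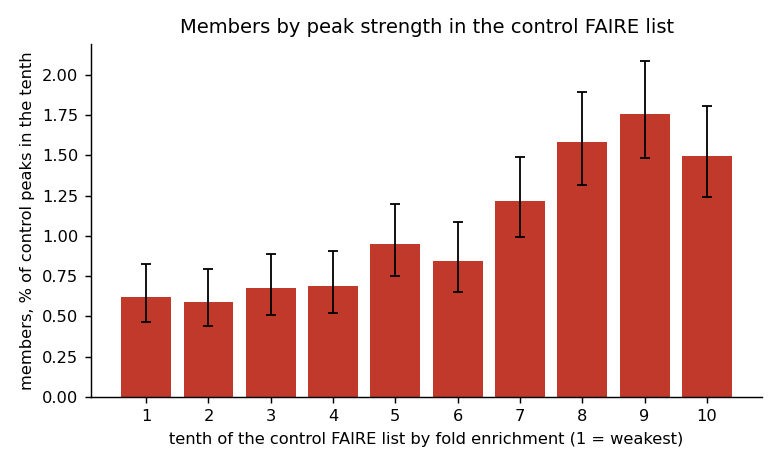
Share of control FAIRE peaks that are members, in % (y axis), in each decile of the control list by fold enrichment from the weakest (1) to the strongest (10). Bars are shares with 95% Wilson intervals; the share is 0.618% in decile 1 and 1.76% in decile 9.

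The heat and cold peaks at the members lay at nearly the same point as the control peak. The heat summit was a median of 13 bp from the control summit (quartiles 5 and 30 bp) and lay within 50 bp of it at 87.1% of members. The cold summit was a median of 17 bp away (quartiles 6 and 34 bp) and lay within 50 bp at 83.8%. At the peaks present in all 4 stress lists these medians were 24 bp for heat and 29 bp for cold. The partner peaks were narrow too, with a median width of 147 bp in heat and 119 bp in cold. Their median percentile was 60.1 in the heat list and 50.9 in the cold list, below the 69.3 and 58.3 of the partners of peaks present in all 4 lists.

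**Figure D2:**
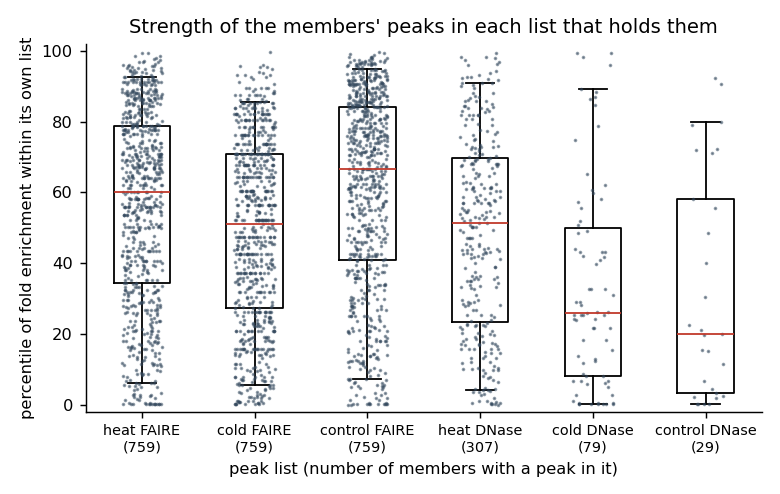
Percentile of fold enrichment within its own list (y axis) for the members' peaks in the heat, cold and control FAIRE lists and, where a member had one, in the heat, cold and control DNase lists; numbers of members are under the names. Points are members, boxes span the quartiles with the median in red, and whiskers reach the 5th and 95th percentiles. Medians are 60.1, 50.9 and 66.7 in the 3 FAIRE lists and 51.3, 26 and 20.0 in the 3 DNase lists.

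The nearest salt peak was a median of 421 bp away (quartiles 217.5 and 853) and the nearest drought peak 422 bp (quartiles 204.5 and 844). At 143 members (18.8%) the nearer of them lay within 150 bp. At the edge of the rule, 7 members had a salt or drought peak within 10 bp. Their median width was 124 bp and their median fold enrichment 1.90. Just outside the rule, 5 control peaks with heat and cold peaks shared only 1 to 10 bases with a salt or drought peak, and had a median width of 142 bp and a median fold enrichment of 2.20.

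The members lay outside protein-coding genes, near their ends, more often than the peaks present in all 4 stress lists. Of the 759 summits, 356 (46.9%, 43.4 to 50.5) lay in the 1000 bp outside an end of a protein-coding gene, 235 (31.0%, 27.8 to 34.3) within a gene, and 168 (22.1%, 19.3 to 25.2) farther away. Of the peaks present in all 4 stress lists, 12.5% (12.2 to 12.8) lay in these flanks and 70.3% within genes. Flanks held 33.8% (892) of the peaks absent from all 4 lists and 8.86% (7.41 to 10.6) of the 1253 peaks absent from heat and cold but present in salt and drought. The sets most like the members had high flank shares too. These were 39.7% (37.8 to 41.6) for peaks present in heat alone and 37.5% (32.8 to 42.3) for those absent from drought alone. Peaks absent from salt alone stood at 31.1% (28.4 to 34.0). The position of a summit was not used by the rule. Gene starts and gene ends are not told apart here, because strand is missing from the gene table.

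The flank share of members grew with strength and stood above that of the peaks present in all 4 lists in each quartile of the control list. In quartile 1, the weakest, 21.3% (14.6 to 29.9) of 108 members lay in flanks, against 3.42% (3.04 to 3.84) of the peaks present in all 4 lists. In quartile 4, the strongest, 56.8% (51.1 to 62.3) of 296 members did, against 24.8% (24.2 to 25.5). Within quartile 4, 16.6% of members and 57.5% of the peaks present in all 4 lists lay within genes. The peaks absent from all 4 lists also lay often in flanks there, at 42.5% (36.3 to 48.9) of 233, so a high flank share was not limited to members.

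In steps of 100 bp, members were densest just outside the gene end. The first 100 bp outside held 13.6% of all members, the next 100 bp outward 8.43% and the first 100 bp inside 8.17%. The peaks present in all 4 lists had 3.91% in the first 100 bp outside and were densest 300 to 400 bp inside a gene, with 7.55%. Members outside genes were a median of 523 bp from the nearest gene end (n = 524), against 1550 bp for peaks present in all 4 lists that lay outside genes (n = 14308). The stretch between genes that held such a member had a median length of 3072.5 bp, against 6973 bp. For the peaks absent from all 4 lists it was 3657 bp, so shorter stretches were not limited to members.

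**Figure D3:**
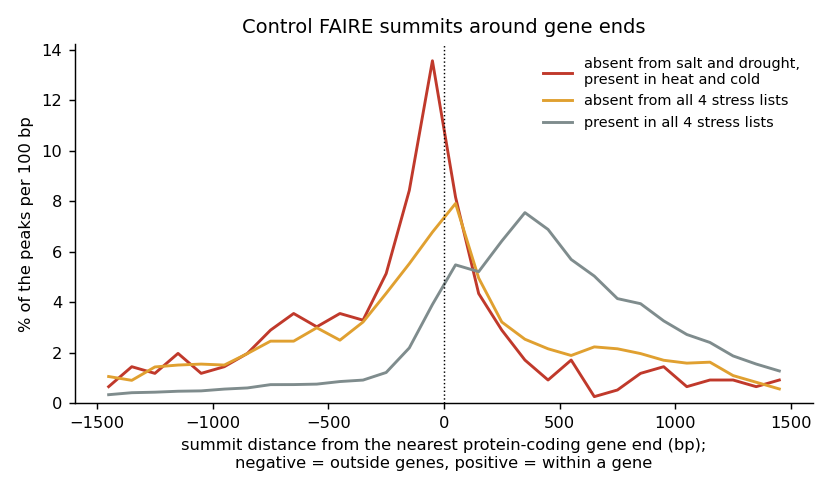
Share of each set of control FAIRE summits per 100 bp (y axis, %) by distance from the nearest end of a protein-coding gene (x axis, bp; negative outside genes, positive inside). The members peak in the first 100 bp outside the end at 13.6%, the peaks absent from all 4 stress lists in the first 100 bp inside at 7.92%, and the peaks present in all 4 lists 300 to 400 bp inside at 7.55%.

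Few members lay in loci annotated as pseudogenes or transposon-derived. Summits of 16 members (2.11%, 1.30 to 3.40) fell in pseudogenes or transposon-derived loci, against 9.91% (9.64 to 10.2) of the peaks present in all 4 lists. Another 15 lay in long noncoding RNA genes (1.98%, against 2.31%) and 2 in tRNA genes (0.264%, against 0.235%), which is near the share of the peaks present in all 4 lists. The members were spread over the chromosomes. They made up 0.911% (0.768 to 1.08) of control peaks on chromosome 3 and 1.18% (0.993 to 1.39) on chromosome 4, with the other chromosomes between, and these intervals overlap. Only 60 members (7.91%) lay within 5000 bp of another.

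The DNase-seq libraries took no part in the choice of the members, and their lists gave a different picture of these sites. A peak that shared at least 1 base with the member was listed at 22 members in salt DNase (2.90%, 1.92 to 4.35), 34 in drought DNase (4.48%, 3.22 to 6.19), 307 in heat DNase (40.4%, 37.0 to 44.0), 79 in cold DNase (10.4%, 8.43 to 12.8) and 29 in control DNase (3.82%, 2.67 to 5.43). Of all control FAIRE peaks, 55%, 43.8%, 62.2%, 65% and 63.5% had a peak in these lists in the same order. Unstressed seedlings thus had a FAIRE peak at all members by choice, but a DNase peak at 3.82%. The heat list, with 57736 peaks against 70807 in control DNase, held more members than the control list.

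The gap was also there among peaks of like place, strength or width. Among flank peaks of quartile 4, 49.4% (41.9 to 56.9) of 168 members were in heat DNase, 9.52% in cold DNase and 1.79% in drought DNase. Of the 3960 such peaks that were present in all 4 FAIRE lists, 83.1%, 73.8% and 48.8% were. Neither salt nor control DNase held any of the 168 members, which allows a share of up to 1.79% (3 counts of the total), and they held 36.0% and 54.1% of the other set. Among peaks of at least 150 and under 200 bp, 35.9% of 245 members were in heat DNase and 1.22% in control DNase, against 61.6% and 66.2% of the peaks present in all 4 FAIRE lists. By strength alone, control DNase held 13.0% (7.88 to 20.6) of the 108 members of quartile 1 and 0 of the 296 of quartile 4, and heat DNase held 28.7% (21.0 to 37.9) and 48.3% (42.7 to 54.0) of them. Of the peaks present in all 4 FAIRE lists, control DNase held 73.5% in quartile 1 and 75.7% in quartile 4, and heat DNase held 58.3% and 86.8%.

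**Figure D4:**
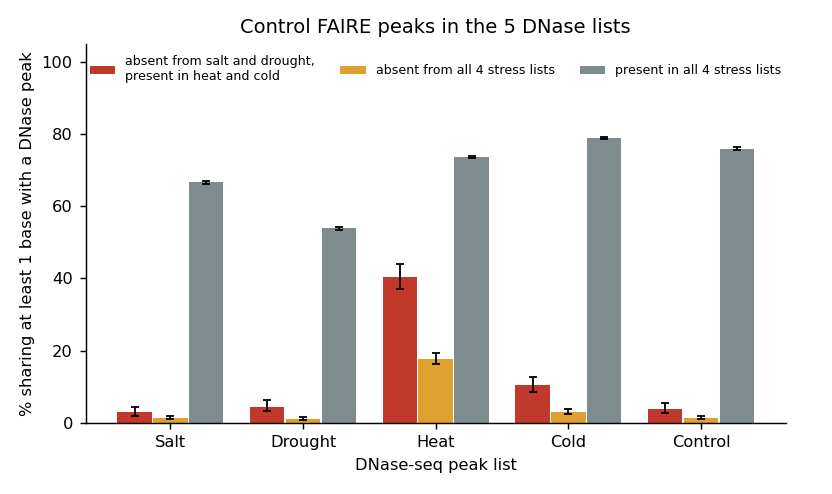
Share of control FAIRE peaks, in %, that share at least 1 base with a peak of each DNase list (x axis), for members, for peaks absent from all 4 stress FAIRE lists and for peaks present in all 4. Bars are shares with 95% Wilson intervals. Members stand at 40.4% in the heat list and at 10.4% or less in the other 4 lists.

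A low control and a higher heat DNase share were also seen at other control FAIRE peaks missing from stress lists. The 1053 peaks absent from salt alone were in heat DNase at 43.2% (40.2 to 46.2) and in control DNase at 5.13%. The 2653 peaks absent from salt, drought and cold were in heat DNase at 28.8% (27.1 to 30.5) and in control DNase at 1.70%. The 395 peaks absent from drought alone were at 32.2% and 15.9%, and the 1253 peaks absent from heat and cold but present in salt and drought at 29.8% and 56.0%. A heat DNase share above the control DNase share was thus not particular to the members. In cold DNase, the members stood at 10.4% (8.43 to 12.8) and the peaks absent from salt alone at 18.8% (16.6 to 21.3). Peaks absent from drought alone lay between, at 14.9% (11.8 to 18.8), and their interval overlaps both. Those absent from salt, drought and cold stood at 5.09%, and those absent from heat and cold but present in salt and drought at 39.1%.

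Of the 32 possible combinations of the 5 DNase lists, 21 occurred at members. At 434 members (57.2%) no DNase list had a peak, against 10.8% of the peaks present in all 4 FAIRE lists. Heat alone had a peak at 231 members (30.4%, against 4.06%), and heat with cold at 49 (6.46%, against 5.63%). All 5 lists had a peak at 11 members (1.45%), where 46.4% of the peaks present in all 4 FAIRE lists had one. At 2 members (0.264%) the DNase lists had the FAIRE pattern as well, with peaks in heat, cold and control and none in salt or drought, against 2209 (4.59%) of the peaks present in all 4 FAIRE lists.

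The heat DNase peaks at members were ordinary peaks of their list. Their median fold enrichment was 2.19 (n = 307), the median percentile in the heat DNase list was 51.3 (quartiles 23.3 and 69.7), and the median width 210 bp. At these 307 members, the DNase summits lay at quartiles of 36.5 and 188.5 bp from the control FAIRE summit. The heat FAIRE summits of all 759 members lay nearer (quartiles 5 and 30 bp), and these sets of members are not the same. The cold DNase peaks ranked lower in their list, with a median percentile of 26 (n = 79), as did the control DNase peaks with 20.0 (n = 29) and the salt DNase peaks with 2.65 (n = 22). The nearest control DNase peak was a median of 504 bp from a member, against 0 bp from a peak present in all 4 FAIRE lists. The 307 members with a heat DNase peak had a median width of 189 bp and lay in flanks at 54.1% (48.5 to 59.6), against 151 bp and 42.0% (37.6 to 46.6) for the other 452. The part of width in this split was not tested.

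A gene was counted with a member where the member's summit lay in the window that reaches 1000 bp out from an end of the gene and 200 bp into it. This placed 484 members at 670 protein-coding genes, 2.44% of 27444, and 186 members lay at the ends of 2 or more genes. Any control FAIRE summit was found at 80.8% of all protein-coding genes. At 153 of the 670 genes the member was the only control FAIRE summit at either end. Of the 670 genes, 514 (76.7%, 73.4 to 79.8) had a salt FAIRE summit elsewhere at an end and 538 (80.3%) a drought FAIRE summit, against 81.2% and 82.8% of all protein-coding genes. By choice, all 670 genes had a control FAIRE summit at an end and no salt or drought FAIRE peak at the member. The genes set beside them were not chosen in this way, so the sets are not alike. Of the same genes 357 (53.3%) had a salt DNase summit, 388 (57.9%) a drought, 571 (85.2%) a heat, 488 (72.8%) a cold and 449 (67.0%) a control DNase summit, against 60.5%, 60.6%, 74.6%, 72.4% and 72.8% of all protein-coding genes.

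Of the members at gene ends, the strongest in the control list lay 526 bp outside AT5G52280. It covered chromosome 5 at 21226101 to 21226285 (TAIR10), with a FAIRE fold enrichment of 4.58 in heat, 4.07 in cold and 4.76 in control, and a DNase fold enrichment of 2.58 in heat. The nearest salt peak was 864 bp and the nearest drought peak 847 bp away. The second lay 789 bp outside AT4G30090, on chromosome 4 at 14707740 to 14708031, with FAIRE values of 3.81 in heat, 4.07 in cold and 4.56 in control and DNase values of 3.49 in heat and 2.33 in cold. The third lay 247 bp outside AT3G15350, on chromosome 3 at 5165840 to 5166055, with 4.16, 3.68 and 4.25 in the same FAIRE lists and 3.71 and 2.45 in heat and cold DNase. All 3 had a percentile of 92.2 or more in each FAIRE list that held them, and none had a control DNase peak. Of the control FAIRE summits at the gene's ends, 0 of 1 at AT5G52280, 1 of 2 at AT4G30090 and 3 of 4 at AT3G15350 were present in all 4 stress lists.

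FEZ (AT1G26870), a NAC transcription factor that orients stem cell divisions in the root cap, had a single control FAIRE summit at its ends, and it was a member. It lay 480 bp outside the gene on chromosome 1 at 9312363 to 9312543, with a FAIRE fold enrichment of 3.70 in heat, 3.77 in cold and 4.05 in control. DDF1 (AT1G12610), an AP2 factor related to the CBF factors, had a member 38 bp outside its end on chromosome 1 at 4290960 to 4291142, with 3.76 in heat, 2.95 in cold and 3.92 in control. Neither had a peak in any DNase list. At the ends of DDF1, 1 of 2 control FAIRE summits was present in all 4 stress lists. LOH2 (AT3G19260), a ceramide synthase, had a member 962 bp outside on chromosome 3 at 6672476 to 6672681, with 3.58, 4.12 and 3.86, and a heat DNase peak of 2.59. The rest of the 10 strongest lay at AT1G66880, AT4G16745, AT1G12230 and AT5G47250, with control fold enrichments of 4.07, 3.95, 3.79 and 3.73, and each had a heat DNase peak and no other DNase peak.

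Only 8 genes had more than 1 member at their ends. ELIP1 (AT3G22840), an early light-induced protein that protects thylakoids, had a member beyond each end, on chromosome 3 at 8083677 to 8083817 and at 8086608 to 8086730. Their FAIRE fold enrichments were 2.96 and 2.68 in heat, 2.47 and 3.39 in cold, and 2.31 and 2.83 in control, and the site at 8086608 also had a heat DNase peak of 2.50 and lay nearer to AT3G22845. TIC (AT3G22380), a regulator of the circadian clock, had members on chromosome 3 at 7912189 to 7912392 and 7919776 to 7919925, and WRKY61 (AT1G18860), a WRKY factor, on chromosome 1 at 6508026 to 6508154 and 6511671 to 6511847. None of these 4 sites had a DNase peak in any list. At ELIP1 and at TIC, 1 of 3 control FAIRE summits at the ends was present in all 4 stress lists. WRKY61 had no control FAIRE summit at its ends other than its 2 members. AT1G12530, also named MOS9 after its role as a modifier of an immune receptor mutant, and AT5G09960 had 2 members each.

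The widest member, of 572 bp, lay beside SETH6 (AT2G47860) on chromosome 2 at 19602223 to 19602794, and its FAIRE fold enrichment was 2.30 in heat, 2.27 in cold and 2.23 in control. The stronger of the 2 members with the same pattern in DNase lay 1341 bp from any protein-coding gene on chromosome 4 at 11138191 to 11138302. It had 2.12, 2.75 and 2.39 in FAIRE and 1.99, 1.85 and 3.13 in DNase. The other was 649 bp outside AT1G70209, within another gene, on chromosome 1 at 26440364 to 26440504, with 2.08, 1.94 and 1.96 in FAIRE and 3.37, 3.34 and 4.69 in DNase. The nearest salt and drought FAIRE peaks were 361 and 351 bp away from the first of them and 142 and 128 bp from the other.

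**Figure D5:**
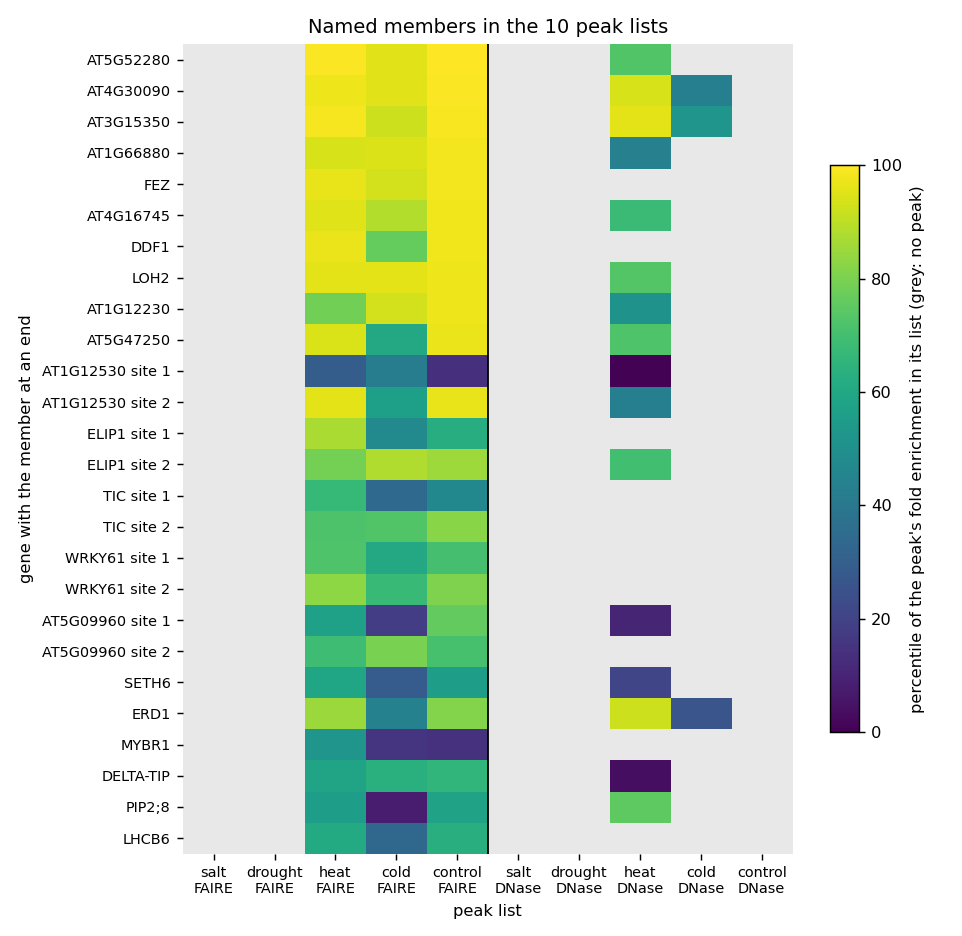
Named members (rows, by the gene with the member at an end) in the 10 peak lists (columns), coloured by the percentile of the peak's fold enrichment in its list, grey where no peak shares a base. The salt and drought FAIRE columns are empty by the choice of the members; heat DNase has a peak at 16 of the 26 rows shown, cold DNase at 3, and salt, drought and control DNase at 0.

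Too few genes of the drought and salt responses had a member to compare their share with that of all genes. Of 38 genes of the drought and abscisic acid response, 1 had a member (2.63%, 0.466 to 13.5), and of 25 of salt and ion homeostasis, 1 (4%, 0.710 to 19.5), where 2.44% of all protein-coding genes had one. The drought gene was ERD1 (AT5G51070), a dehydration-induced regulatory subunit of the chloroplast Clp protease. Its member had its summit 155 bp inside the gene, on chromosome 5 at 20764033 to 20764345, with a FAIRE fold enrichment of 2.87 in heat, 2.42 in cold and 2.68 in control and a DNase fold enrichment of 3.37 in heat and 2.12 in cold. The nearest salt peak was 157 bp and the nearest drought peak 437 bp away. The salt gene was MYBR1 (AT5G67300, MYB44), a MYB factor of abscisic acid signalling, with a weak member 950 bp outside that outranked 14.1% of the control list.

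Of 18 aquaporin genes, which encode the water channels of the vacuole and plasma membrane, 2 had a member (11.1%, 3.10 to 32.8). DELTA-TIP (AT3G16240, TIP2;1), a vacuolar one, had it 567 bp outside and within another gene, with 2.29 in heat, 2.71 in cold and 2.36 in control FAIRE. PIP2;8 (AT2G16850), a plasma membrane one, had it 40 bp outside on chromosome 2 at 7303411 to 7303641, with 2.26, 2.00 and 2.25, and a heat DNase peak of 2.64. Of 23 photosynthesis genes 1 had a member, LHCB6 (AT1G15820), an antenna protein of photosystem II, with 2.33, 2.32 and 2.32. Of 23 cold response genes 1 did, which was ELIP1. Of the genes on the short lists for other processes, none of 25 heat shock, 22 jasmonate, wound and touch, 16 circadian clock, 9 root and 9 shoot and leaf epidermis genes had one. These lists give wide intervals and do not hold every gene of a process, since TIC and FEZ are on none of them.

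Among gene families grouped by symbol, 6 of 132 MYB factors had a member (4.55%, 2.10 to 9.56), as did 4 of 103 NAC, 3 of 71 WRKY, 2 of 52 ERF and DREB, 1 of 11 bHLH and 1 of 66 homeobox factors. Grouping by symbol leaves out family members with other names, such as DDF1 among the ERF and DREB factors and HFR1, BEE3 and PIL6 among the bHLH factors, all of which had a member. The intervals of these families all reach below 2.44%. MYB15 (AT3G23250), a repressor of the CBF genes in the cold response, had a member 153 bp outside on chromosome 3 at 8308954 to 8309136, with 3.29 in heat, 2.83 in cold and 2.89 in control. KNAT3 (AT5G25220), a KNOX homeobox factor, had a wide one of 402 bp that lay 13 bp outside, with 2.47, 3.39 and 3.54 and a heat DNase peak of 2.51. ERF73 (AT1G72360, HRE1), an ethylene response factor of hypoxia, had one 26 bp inside its end, with 2.07, 2.75 and 2.21. At MYB15 and at ERF73, 1 of 2 control FAIRE summits at the ends was present in all 4 stress lists, and at KNAT3 0 of 2.

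Of the other families, 6 of 250 cytochrome P450 genes had a member (2.4%, 1.10 to 5.14), as did 5 of 96 CRK and RLP receptor genes (5.21%, 2.24 to 11.6). So did 2 of 112 SAUR and Aux/IAA genes, 1 of 67 expansin and xyloglucan transferase genes and 0 of 21 histone genes. The intervals of these families also all reach below 2.44%, the share of all protein-coding genes. Among the receptor genes, EMB1290 and CRK18 shared 1 member. FAH1 (AT4G36220), the ferulate 5-hydroxylase of lignin synthesis, had it 665 bp outside, with 2.68 in heat, 2.82 in cold and 2.58 in control. SAUR15 (AT4G38850) and its neighbour AT4G38840 (SAUR14), small auxin-induced genes, shared 1 member on chromosome 4 at 18125816 to 18126016, with 2.37, 2.25 and 2.64. At each of these SAUR genes, 2 of 3 control FAIRE summits at the ends were present in all 4 stress lists, and at FAH1 0 of 1. Of 57 genes whose symbols read as ribosomal proteins, 1 had a member, and this was RPS2 (AT4G26090), which is a disease resistance gene and no ribosomal protein.

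The size and make-up of the set rested on how a shared peak is defined. When summits within 150 bp counted as shared in place of shared bases, 2368 control peaks met the rule, 20.7% of them lay in flanks and 57.1% had a control DNase peak. With FAIRE lists of equal length, 1589 did, of which 34.9% lay in flanks, 45.2% had a heat DNase peak and 15.2% a control DNase peak.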

How the data were processed

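The series holds 33 libraries, of which 28 are chromatin libraries. The 5 RNA libraries were not analysed here. Titles mark libraries D or F, read as DNase-seq and FAIRE-seq from the methods named in the design text. The 10 deposited narrowPeak lists each stand for 1 group, and the way of pooling is not stated in the sources at hand. The tools Bowtie2, SAMtools and MACS2 are named without versions, and TAIR10 is named as the genome build, per the submitters' processing notes. The deposited lists give a fold enrichment (a ratio to local background) and, for each peak, the p-value and q-value as −log10. The deposited score repeats −log10 q and was not used. Read depth is unknown.

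Overlaps, Wilson intervals and percentiles were computed with Python 3.11.15, numpy 2.4.6, pandas 2.3.3 and scipy 1.17.1, with code tested on simulated data. Peaks of chromosomes 1 to 5 with identical coordinates were counted once. Peak coordinates are the files' own, given from 1. Gene ends came from RefSeq assembly TAIR10.1, used only for names and distances. Per chromosome, control DNase summits were 6.30 to 8.22 times as frequent in the 300 bp inside gene ends as in the 300 bp outside. This ratio cannot decide whether gene ends and peak coordinates match, because no value that would show a mismatch was set. No genome sequence was used, so a planned motif comparison was not run. Members and gene lists were chosen with earlier results of these data known. Named genes were the 10 strongest members at gene ends, members with the same DNase pattern, up to 5 genes with the most members, the widest member, and list genes by strength, of which some are given.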

Additional observations from a re-analysis of the deposited data

How the results depend on the processing

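No paired analysis was possible because each group has 1 pooled list, and for the same reason no library could be left out. The cause of the changes below was not tested. With summits within 150 bp as the match, there were 2368 members at 1537 genes, with a median width of 204 bp and a median fold enrichment of 2.21; 20.7% lay in flanks (14.8% of peaks present in all 4 lists) and 64.0% within genes, and the salt, drought, heat, cold and control DNase lists held 54.1%, 41.3%, 64.5%, 59.1% and 57.1%. With FAIRE lists of 63060 peaks each, these were 1589 members, 1229 genes, 180 bp, 2.22, 34.9% (13.4%), 37.5%, 11.6%, 10.7%, 45.2%, 22.7% and 15.2%. With at least 50% of the control peak covered as the match, there were 910 members of median width 170 bp, 34.8% lay within genes, and salt, drought, cold and control DNase held 6.15%, 7.14%, 16.9% and 8.79%. When all FAIRE lists were limited to −log10 q of 5 or more, there were 588 members with a median fold enrichment of 2.51, 51.9% in flanks (15.1% of peaks present in all 4 lists) and 24.1% within genes. With that limit on control, heat and cold alone, these were 535 members, 2.52, 53.1% (15.1%) and 23.2%, and salt, drought and control DNase held 1.31%, 3.18% and 2.24%. With no salt or drought peak less than 150 bp away, 618 members stayed, 25.9% of them within genes. Flanks of 500 bp held 34.0% of members (9.11% of peaks present in all 4 lists), flanks of 2000 bp 57.0% (16.2%), and with genes of all kinds, a setting chosen after seeing the data, flanks held 51.5% (13.6%) and genes 34.5%. With DNase lists of 45737 peaks each, the salt, heat, cold and control lists held 1.05%, 32.4%, 5.14% and 1.84% of members. With at least 50% of the member covered by DNase peaks, the drought, heat, cold and control lists held 2.37%, 26.7%, 6.06% and 1.98%. Windows at gene ends that reached 500 bp out and 100 bp in gave 439 genes, and those that reached 2000 bp out and 500 bp in gave 1054. In the settings that recomputed place (those on the FAIRE lists and on flanks and gene kinds), the flank share of members was above that of the peaks present in all 4 lists. In those that recomputed DNase shares (on the FAIRE and DNase lists), the heat share was above the control share.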
